A study of Mus musculus with 6 samples.

Results

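The genes described here make cholesterol, sense it, move it inside the cell and send it out. They were chosen by name, as 30 genes of these roles, and each was represented by its single-gene probe set of highest mean. Of the 30 members, 27 had such a probe set, out of 18194 genes named on the array. The expression of Acat2, Soat1 and Nr1h2 was not analysed here, but they are among the members with a promoter window below. The 30 are not the whole pathway.

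The tumours were made with KPC1199, a mouse line of pancreatic ductal adenocarcinoma, placed under the skin of mouse hosts, and 6 of them were read on 1 Affymetrix array each. Hosts of the lactation group (3 mice) received the cells on the right side of the back while pregnant or at the start of nursing, and hosts of the control group (3 mice) are labelled only as ctrl. All mice were killed 20 days after injection at the same age, and all tumours come from the same 1 line. The strain and sex of the hosts and the age in weeks are not given in the sources used here, and the labels do not split the lactation hosts into pregnant and nursing ones. The labels call the tumours biological replicates.

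Cholesterol is built from acetyl-CoA through mevalonate, farnesyl diphosphate, squalene and lanosterol. When membranes of the endoplasmic reticulum are low in cholesterol, the escort protein SCAP carries the transcription factor SREBP-2 to the Golgi, where it is cut and released to switch on the genes of synthesis and uptake; INSIG proteins hold SCAP back when sterols are plentiful. Oxysterols, which accumulate with cholesterol, activate the liver X receptors (LXR), which switch on the exporters ABCA1 and ABCG1 and the ubiquitin ligase MYLIP that marks lipoprotein receptors for destruction. Many tumour cells keep the synthesis arm active, macrophages are known for a strong export arm, and the lactating mammary gland makes large amounts of lipid.

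Promoter sequence shows what most of the synthesis genes share besides their pathway. RefSeq promoter windows (GRCm38.p6, 250 bases before to 50 after a start) were found for 24 of the 30 members, without Fdps, Fdft1, Sqle, Stard4, Npc1 and Abcg1. The letters CCAAT, the box bound by NF-Y, a known partner of SREBP, stood on either strand in 14 of 15 synthesis genes. Over all 27025 genes with such a window the share was 41.1%. In the 4 SREBP control genes 3 held it, and in the 4 LXR export genes with a window 1 held it, Mylip. The sterol regulatory element letters TCACNCCAC stood in 1 synthesis gene, Hmgcs1, and in 1.44% of all genes. The E-box CACGTG, which SREBP proteins can also bind, stood in 3 of the 15 synthesis genes and in 2 of the 4 SREBP control genes, in 1 of the 4 LXR export genes (Abca1), and in 8.09% of all genes. These are letter matches and not measured binding. No motif here overlaps another in the windows shown.

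The windows below are read 5′ to 3′ on the gene's strand, with the matched letters in capitals. They were chosen to show the synthesis gene with the TCACNCCAC element, which also has CCAAT boxes (Hmgcs1), a pair of CCAAT boxes close to a start (Idi1), a pair further upstream (Msmo1), and the 1 synthesis gene that was lower in lactation without overlap (Pmvk). The distal Hmgcs1 window runs from base -190 to -111 counted from the start, at chr13:119690161-119690240 on the plus strand, and the proximal one from -60 to -1, at chr13:119690291-119690350. Idi1 is shown from -60 to -1, at chr13:8885546-8885605 on the plus strand. Msmo1 is shown from -110 to -41, at chr8:64733619-64733688 on the minus strand, and Pmvk from -150 to -111, at chr3:89454391-89454430 on the plus strand, the first of its 2 windows.
Hmgcs1 distal: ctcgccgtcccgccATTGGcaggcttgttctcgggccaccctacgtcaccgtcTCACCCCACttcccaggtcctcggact
Hmgcs1 proximal: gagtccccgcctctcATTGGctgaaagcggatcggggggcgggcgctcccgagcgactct
Idi1: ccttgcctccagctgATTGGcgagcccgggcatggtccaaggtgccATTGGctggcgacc
Msmo1: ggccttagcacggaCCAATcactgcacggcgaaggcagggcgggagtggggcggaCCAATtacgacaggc
Pmvk: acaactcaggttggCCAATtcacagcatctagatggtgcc

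For the export arm, LXR binds a pair of half-sites spaced by a few bases. The pattern searched, GGTNA followed by GGTCA after 5 free bases on either strand, was chosen after the Abca1 window had been read. It stood in 1 of the 4 export genes with a window, Abca1, and in 0.226% of all genes. The Abca1 window from -80 to -41, at chr4:53159936-53159975 on the minus strand, holds it on the opposite strand, and the capitals mark the match.
Abca1: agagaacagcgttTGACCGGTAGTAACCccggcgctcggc

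The arrays were close in level, with median signals from 99.3 to 111.0. All 10 ductal epithelial markers (keratins, Epcam, Cdh1 and others) lay above the level filter, so epithelial signal was present. Their summed signals went from 75170 to 105600 in lactation and from 70280 to 88570 in controls. Whether this signal came only from the labelled tumour type was not tested. Arrays differed in other tissue. The 5 skeletal muscle markers summed from 10260 to 59460 in lactation and from 6497 to 55600 in controls. The 5 milk genes of the mammary gland (Csn2, Csn1s1, Csn3, Wap and Lalba) summed to 1191 on lactation replicate 2 and to 133.5 and 172.5 on the other lactation arrays, with 149.0 to 156.5 in controls. All 5 lay below the level filter. For the tested members, differences that moved by over 1.5 times when lactation replicate 2 was left out are given with that value too. Differences of other pathway genes and of markers were not recomputed with arrays left out.

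The question here is whether the sterol genes of a tumour differ when its host lactates. None of the members passed the test. Of 26 that lay above the level filter (at least 3 of 6 arrays at or above their array's median) and were tested in limma, 0 had a Benjamini-Hochberg adjusted p under 0.05, and 1, Fdft1, had an unadjusted p under 0.05. Over all 11623 genes tested, 0% passed at the adjusted threshold and 2.27% at the unadjusted one. Differences below are log2(signal + 16) in lactation minus control, with the standard error of the limma fit, and limma's adjusted p was 1 for all 26 members. Groups did not overlap for 2 of the 26 members and for 6.9% of all genes tested, so this count is close to the background. Idi1 was higher without overlap, as were 3.71% of all genes, and Pmvk lower without overlap, as were 3.19%.

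Most synthesis enzymes had slightly higher means in lactation. Of 17 tested enzymes 12 had a positive difference and 5 a negative one, where 48.3% of all genes tested had a positive difference. With each array centred on its median these were 11 of 17 and 34.7%. The median of the 17 was 0.13, from -0.20 for Pmvk to 0.31 for Fdft1, beside a median of -0.005 over all genes tested and a middle 50% from -0.09 to 0.09. Of the 6 enzymes that lead to farnesyl diphosphate 3 were positive (median 0.08), as were 9 of the 11 from squalene onwards (median 0.13). Cell type markers had one-sided differences in the same arrays. All 10 ductal epithelial markers had a positive difference, with a median of 0.24. Of 10 macrophage markers 9 had a negative one, with a median of -0.25. Lactation and control values overlapped for all 10 ductal markers. Lactation replicate 3 was highest for ductal and lowest for macrophage markers. Relative to each gene's mean, ductal markers stood at 0.15, -0.18 and 0.47 in lactation and 0.14, -0.36 and -0.21 in controls. Macrophage markers stood at 0.0, 0.03 and -0.36 in lactation and -0.1, 0.19 and 0.23 in controls. The part of these cell types in the synthesis differences was not tested.

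**Figure D1:**
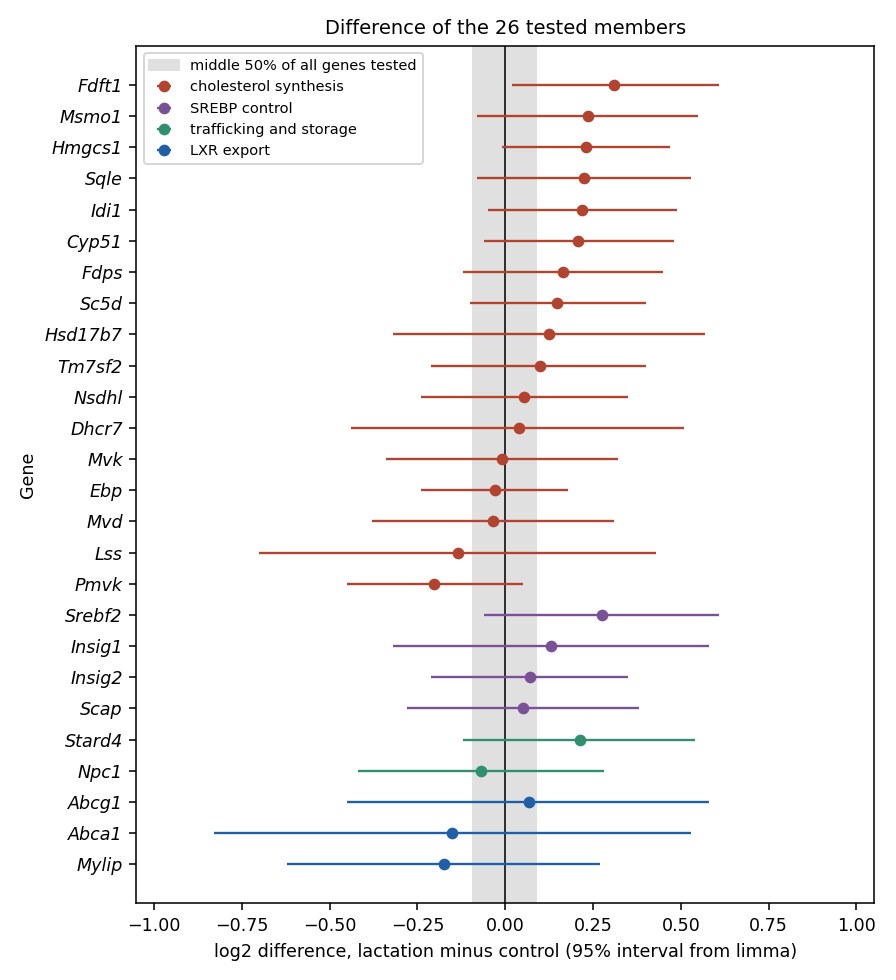
Points give the log2 difference of each of the 26 tested members, lactation minus control, coloured by role, with the 95% interval from limma; the grey band is the middle 50% of all 11623 genes tested, from -0.09 to 0.09. Every interval but that of Fdft1 (0.02 to 0.61) includes 0, and all 26 lie between -1 and 1.

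The 95% intervals set how large a difference these arrays leave room for. All 26 intervals lay inside a 2-fold change in either direction, between -1 and 1 on the log2 scale, and 21 lay inside a 1.5-fold change. The widest was that of Abca1, from -0.83 to 0.53. The intervals are for the difference of the group means that these 6 tumours estimate, not for single tumours. They use limma's standard error, which also draws on the spread of the other genes tested. They are not adjusted for the number of genes.

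Among enzymes up to farnesyl diphosphate, Hmgcs1, which joins acetyl-CoA to acetoacetyl-CoA at the entry of the pathway, had signals of 5704, 6421 and 6431 in lactation and 5995, 4880 and 4971 in controls. Control replicates 2 and 3 lay under all lactation tumours, and control replicate 1 lay among them. The difference was 0.23 (standard error 0.10, unadjusted p = 0.0553, limma), and the mean signal was 6185 ± 417 against 5282 ± 619 (SD, n = 3). Its 4 other probe sets had differences of 0.22, 0.27, 0.23 and 0.51.

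Idi1, which interconverts the 2 isoprenoid building blocks, had signals of 1336, 1397 and 1456 in lactation and 1310, 1275 and 1026 in controls. The groups did not overlap, by a narrow margin at the lowest lactation and highest control tumour. Its difference was 0.22 (standard error 0.11), which was 0.11 without control replicate 3, the lowest of the 6. The other Idi1 probe set gave 0.47, again with no overlap.

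Pmvk, phosphomevalonate kinase, was 1 of the 5 enzymes with a negative difference and the 1 whose groups did not overlap. It had signals of 374.6, 402.1 and 376.2 in lactation and 420.2, 464.3 and 451.7 in controls, with every lactation tumour below every control. The difference was -0.20 (standard error 0.11), from -0.25 to -0.18 over all the settings tried. The kinase before it, Mvk, and the decarboxylase after it, Mvd, had differences of -0.01 and -0.04, with overlapping groups. A second probe set of each of these lay on the other side of 0, at 0.18 for Mvk and 0.11 for Mvd. Leaving out lactation replicate 2 gave -0.08 for Mvk and -0.13 for Mvd, and leaving out lactation replicate 3 gave 0.08 and 0.02. Fdps, which makes farnesyl diphosphate, had a difference of 0.16 (3354 ± 370 against 2996 ± 369), which was 0.08 when lactation replicate 2 was left out and 0.06 when control replicate 3 was.

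From squalene onwards, Fdft1 (squalene synthase) had the largest difference of any member. Lactation tumours had signals of 1793, 1689 and 1826, and controls of 1713, 1292 and 1300. As with Hmgcs1, control replicate 1 lay among the lactation tumours and the other 2 controls lay well below. The difference was 0.31 (standard error 0.13, unadjusted p = 0.0422, limma, adjusted p = 1), a mean of 1769 ± 71.3 against 1435 ± 241. A second Fdft1 probe set above the filter gave 0.42. Averaged over all 4 Fdft1 probe sets, of which 2 were dim on every array, it was 0.17.

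Sqle, squalene epoxidase, an oxygen-dependent and rate-controlling step, had signals of 1862, 1906 and 1814 in lactation and 1861, 1627 and 1328 in controls. The lactation tumours were tightly grouped and the controls spread downwards from the same level. The difference of 0.22 (standard error 0.13) was 0.10 without control replicate 3. Msmo1, which removes the methyl groups at carbon 4 of the sterol ring together with Nsdhl and Hsd17b7, had signals of 2246, 2731 and 2434 in lactation and 2261, 2302 and 1751 in controls. Its groups overlapped, with control replicate 3 lowest and lactation replicate 2 highest. The difference of 0.24 (standard error 0.13) was 0.11 without control replicate 3.

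The remaining sterol enzymes had smaller or less even differences. Cyp51, the lanosterol demethylase, measured 1583 ± 110 in lactation and 1373 ± 174 in controls, a difference of 0.21, with 0.22 from a second probe set. Sc5d, the lathosterol desaturase, measured 1140 ± 108 against 1026 ± 76.4, a difference of 0.15. Differences were 0.13 for Hsd17b7, 0.10 for the sterol reductase Tm7sf2, 0.05 for Nsdhl, 0.04 for Dhcr7, the last reductase before cholesterol, and -0.03 for the sterol isomerase Ebp. Several of these rested on single arrays. Leaving out lactation replicate 2 gave 0.08 for Sc5d, 0.02 for Hsd17b7, -0.01 for Nsdhl, -0.10 for Dhcr7 and 0.01 for Ebp. Hsd17b7 was -0.05 when control replicate 2 was left out and 0.26 when control replicate 1 was. Dhcr7 was 0.26 when lactation replicate 1 was left out, and negative when replicate 3 of either group was (-0.05 in lactation, -0.06 in controls). Nsdhl was 0.16 and 0.01 when lactation replicate 1 or 3 was left out, and 0.11 and 0.02 when control replicate 1 or 2 was. Tm7sf2 was 0.16 when control replicate 1 was left out and 0.06 when control replicate 3 was, and Cyp51 was 0.14 when control replicate 2 was. Lss, which folds oxidosqualene into lanosterol, had a difference of -0.13 that came from 1 tumour: lactation tumours had 258.5, 293.5 and 151.6, and controls 241.1, 246.2 and 262.8. Without lactation replicate 3 it was 0.13, without lactation replicate 2 it was -0.31 and without lactation replicate 1 it was -0.22, and a second Lss probe set gave 0.19.

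Probe sets that the rule did not choose give a further reading of the same RNA. Of 13 such probe sets above the filter, from 9 synthesis genes, all 13 had a positive difference, from 0.01 to 0.51 with a median of 0.22. The 0.51 was from the dimmer Hmgcs1 probe set. They measured the same tumours and are not further replicates. When all probe sets of a gene were averaged, 15 of 17 enzymes were positive, with a lower median of 0.09, beside 50.3% of all genes tested. This average also takes in probe sets that were dim on every array, with differences of both signs.

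**Figure D2:**
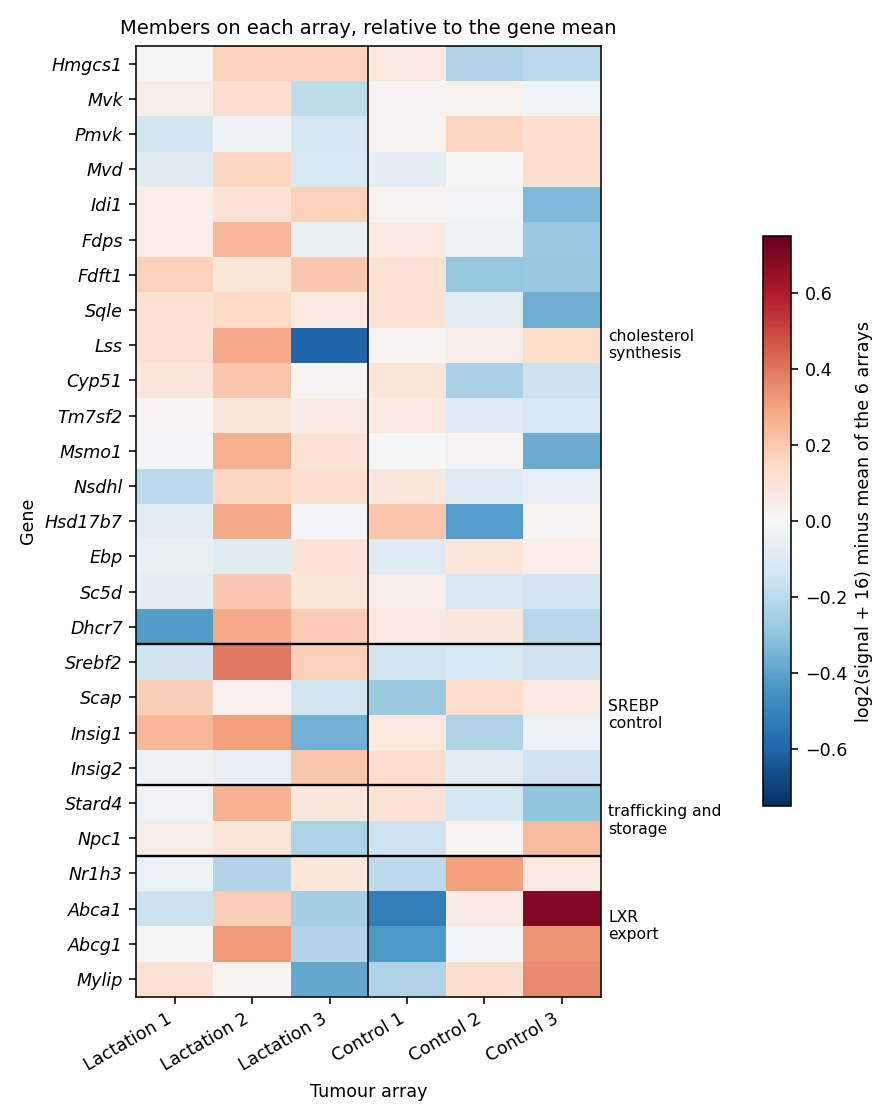
Each row is 1 of the 27 measured members and each column 1 tumour array; colour gives log2(signal + 16) minus that gene's mean over the 6 arrays, red above and blue below. Lactation replicate 2 is red for most synthesis enzymes, control replicate 3 is blue for many of them, and control replicate 3 is red for Abca1, Abcg1 and Mylip.

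The synthesis enzymes followed single tumours. Of the 17, 12 were highest on lactation replicate 2, an array that was highest for 16% of all genes tested. The lowest value fell on control replicate 3 for 6 of the 17 and on control replicate 2 for 4, and these arrays were lowest for 20.4% and 16.5% of all genes. Averaged over the 17 enzymes relative to each gene's mean, the log2 level was -0.03, 0.16 and 0.01 in lactation and 0.05, -0.07 and -0.12 in controls. Control replicate 1 therefore lay above 2 of the 3 lactation tumours, and the groups overlapped.

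Single tumours moved the median of the 17 enzymes. Leaving out lactation replicate 2 gave 0.08 and leaving out control replicate 3 gave 0.06. Leaving out lactation replicate 1 or control replicate 1 gave 0.20 or 0.21, and centring each array on its median gave 0.08. It stayed positive in all 18 settings tried, but some of these could not move it. The other eBayes fits, the replicate block and dropping the filter leave each of the 17 differences as it was. Lactation replicate 2, the highest of the 6 for these enzymes, was also the array with milk gene signal, with Csn2 at 332.9, Csn1s1 at 358.7 and Csn3 at 396.2, where the other 5 arrays had at most 27.0, 13.1 and 76.3. Of the 5 milk genes 4 were highest there, and Wap, at 46.3, was not. The part of mammary tissue in the synthesis level of that array was not tested. In bulk tumours, fewer cells of a type and less RNA per cell cannot be told apart.

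The 4 SREBP control genes all had positive differences, with a median of 0.10. Srebf2, which encodes SREBP-2 and is one of its own targets, had signals of 877.0, 1287 and 1099 in lactation and 884.6, 897.4 and 872.2 in controls. The 3 controls were nearly level, 2 lactation tumours lay above them, and lactation replicate 1 lay among them. The difference was 0.28 (standard error 0.14, unadjusted p = 0.0942, limma), and leaving out lactation replicate 2 or 1 gave 0.15 or 0.42. A second Srebf2 probe set gave 0.12.

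Insig1, the INSIG that SREBP-2 itself induces, had signals of 1289, 1344 and 840.3 in lactation and 1143, 922.6 and 1051 in controls. Lactation replicate 3 had the lowest Insig1 of the 6 and the other 2 lactation tumours the highest. Its difference was 0.13 (standard error 0.19). Leaving out lactation replicate 1, 2 or 3 gave 0.04, 0.01 or 0.34, and leaving out control replicate 1 or 2 gave 0.20 or 0.05; it was 0.08 with each array centred on its median. Insig2, the INSIG that does not depend on SREBP-2 in the same way, had a difference of 0.07 (1541 ± 165 against 1467 ± 156), and was highest on lactation replicate 3, where Insig1 was lowest. It was -0.02 when that array was left out, 0.12 and 0.11 when lactation replicate 2 or 1 was, and 0.15, 0.05 and 0.01 when control replicate 1, 2 or 3 was. Its sign and that of Scap therefore rest on single arrays. Scap, the escort, had a difference of 0.05 (1324 ± 147 against 1282 ± 191), which turned negative without control replicate 1 (-0.08) or lactation replicate 1 (-0.03) and when its probe sets were averaged (-0.09). The median of the 4 was 0.20 or 0.18 when lactation replicate 3 or control replicate 1 was left out, and 0.05 with each array centred on its median.

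Of the genes that move or store cholesterol inside the cell, Stard4 and Npc1 could be measured. Stard4, a soluble sterol carrier induced by SREBP-2, had signals of 589.7, 722.1 and 635.6 in lactation and 647.8, 545.1 and 486.1 in controls. Its pattern over the tumours resembled that of the synthesis enzymes, highest on lactation replicate 2 and lowest on control replicate 3, with overlapping groups. The difference was 0.21 (standard error 0.14), and it was 0.12, 0.14 and 0.32 when control replicate 3, lactation replicate 2 or control replicate 1 was left out. Its other probe sets disagreed in sign, at 0.23 and -0.16, and the mean of its 3 probe sets gave 0.09. Npc1, the membrane protein that lets cholesterol out of lysosomes, had signals of 515.9, 533.1 and 421.9 in lactation and 448.2, 507.8 and 591.6 in controls. Its highest tumour was control replicate 3, and the groups overlapped. The difference of -0.07 (standard error 0.15) was 0.03 when replicate 3 of either group was left out, -0.13 and -0.11 when lactation replicate 2 or 1 was, and -0.16 when control replicate 1 was.

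The export arm did not separate the groups. Of the 3 tested export genes 1 had a positive and 2 a negative difference, with a median of -0.15, and all 3 had overlapping groups. Abca1, which loads cholesterol onto apolipoprotein A-I, had signals of 2506, 3185 and 2358 in lactation and 1952, 2926 and 4521 in controls. Controls held both the lowest and the highest tumour. The difference was -0.15 (standard error 0.29). It turned to 0.15 when control replicate 3 was left out, and was -0.45, -0.28 and -0.07 when control replicate 1, lactation replicate 2 or lactation replicate 3 was left out. Its other probe sets gave -0.21 and -0.16.

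Abcg1, which passes cholesterol to high-density lipoprotein, had signals of 1123, 1408 and 963.6 in lactation and 831.0, 1115 and 1423 in controls. It followed the order of Abca1 at the extremes, with control replicate 1 lowest and control replicate 3 highest. The difference of 0.07 (standard error 0.22) turned to -0.13 and -0.08 when control replicate 1 or lactation replicate 2 was left out, and was 0.25 and 0.20 when control or lactation replicate 3 was. A second probe set gave -0.045. Mylip, the LXR-induced ubiquitin ligase, had signals of 990.7, 928.0 and 701.9 in lactation and 785.4, 1006 and 1182 in controls. Its highest tumour was again control replicate 3, and the lowest was lactation replicate 3. The difference was -0.18 (standard error 0.19). It was -0.04 and -0.03 when control or lactation replicate 3 was left out, and -0.33 and -0.27 when control or lactation replicate 1 was. Nr1h3, the gene of LXR-alpha, lay below the level filter (88.8 ± 10.7 against 98.9 ± 19.8) and was not tested.

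Averaged relative to each gene's mean, Abca1, Abcg1 and Mylip stood at -0.02, 0.17 and -0.28 in lactation and -0.39, 0.06 and 0.46 in controls. On the control side the order of tumours was the reverse of that of the synthesis enzymes: control replicate 1 was highest for synthesis and lowest for export, and control replicate 3 lowest for synthesis and highest for export. The lactation tumours did not follow this reversal, since lactation replicate 2 was highest of the 3 in both. These orders describe 6 tumours and were not tested. Control replicate 3 was the highest array for all 3 export genes and for 22.1% of all genes tested.

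**Figure D3:**
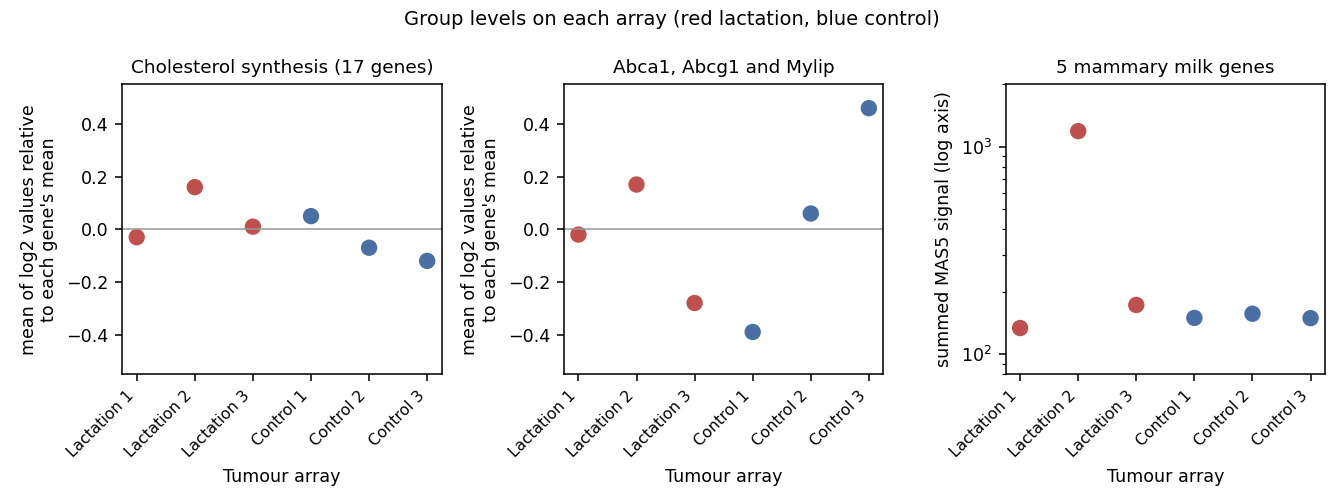
The left and middle panels give, for each tumour array, the mean over 17 synthesis enzymes and over Abca1, Abcg1 and Mylip of log2 values relative to each gene's mean; the right panel gives the summed MAS5 signal of 5 milk genes on a log axis. Synthesis is highest on lactation replicate 2 (0.16), which is also the array with a milk gene sum of 1191, and export is highest on control replicate 3 (0.46).

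Macrophage and fibroblast markers varied between single tumours as well. Of the 10 macrophage markers 9 had a negative difference, with a median of -0.25, and the exception was Cd14 (0.41). Itgam (-0.64, unadjusted p = 0.0272, limma, adjusted p = 1) and C1qb (-0.27) were lower in lactation without overlap. Over all genes tested 3.19% were lower without overlap, and 2.27% had an unadjusted p under 0.05 in limma. The C1qb margin was narrow, at 9026 on lactation replicate 2 against 9108 on control replicate 1. The 10 macrophage markers (Adgre1, Cd68, Csf1r and others) summed from 42910 to 55810 in lactation and from 53280 to 60410 in controls. Relative to each gene's mean they stood at 0.23 on control replicate 3 and -0.36 on lactation replicate 3, the arrays where Mylip was highest and lowest. The 6 fibroblast markers summed to 98300 on control replicate 3 and to 68420 on control replicate 1, the extremes of the 6 arrays and of Abca1. The 5 measured adipocyte markers summed from 567.0 to 1376 in lactation and from 418.3 to 1411 in controls. The part of these cells in the export values was not tested.

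**Figure D4:**
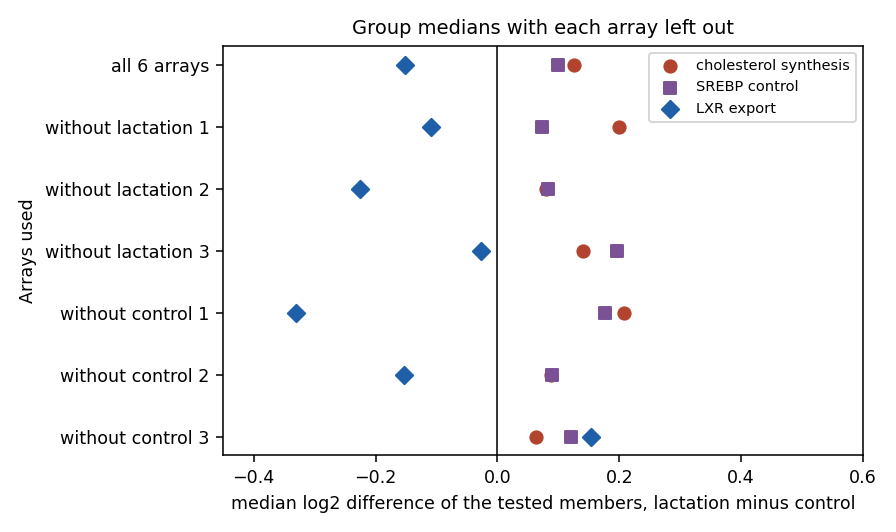
Each row leaves out 1 tumour array, and points give the median log2 difference, lactation minus control, of the tested synthesis (circles), SREBP control (squares) and LXR export (diamonds) genes. The synthesis median stays between 0.06 and 0.21, and the export median goes from -0.33 (control replicate 1 left out) to 0.15 (control replicate 3 left out).

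Other genes of sterol and isoprenoid biology were less one-sided than the synthesis enzymes in count. Of 36 further genes measured and tested, 18 had a positive and 18 a negative difference, with a median of 0.003, and 0 passed in limma. None had an unadjusted p under 0.05. None met the rule for naming, which asked for groups that do not overlap and a difference of at least 0.5. Groups did not overlap for 2 of the 36, both higher in lactation, which is near the 6.9% of all genes tested (3.71% higher): Fntb, the beta subunit of protein farnesyltransferase (difference 0.30), and Erlin2, an endoplasmic reticulum protein of INSIG and SREBP turnover (0.13). These were named after their values were seen.

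By role, the proteases and turnover factors of SREBP had 3 of 7 positive differences, among them the proteases Mbtps1 with 0.02 and Mbtps2 with 0.06. Srebf1, which encodes SREBP-1 of fatty acid synthesis, had a difference of -0.05. Of 3 further SREBP-2 targets 2 were positive, Tmem97 with 0.13 and Aacs with 0.03, and Acss2 had -0.12. Both positive ones were highest on lactation replicate 2, the array with milk gene signal, which was highest for 16% of all genes tested. Tmem97 had signals of 390.6, 478.8 and 370.8 in lactation and 393.3, 333.5 and 400.2 in controls. Aacs had 619, 749.6 and 510 in lactation and 628.9, 581.8 and 606.1 in controls. Acss2 was highest on control replicate 1, with 494.6, 389.6 and 370.7 in lactation and 548.6, 422.9 and 396.8 in controls. The part of mammary tissue in these levels was not tested. The isoprenoid branch had 3 of 7 positive, and the genes of lysosomal uptake and membrane transfer 4 of 10, from -0.13 for Scarb2 to 0.09 for Stard3. Among 4 oxysterol enzymes Cyp7b1, which hydroxylates oxysterols, had the widest range of signals, from 214.4 to 475.1 in lactation and from 119.6 to 723.7 in controls, with control replicate 1 lowest and control replicate 3 highest as for Abca1. Its difference was 0.30 with a standard error of 0.60. Of 5 further LXR partners and targets 4 were positive, from -0.13 for Rxra to 0.25 for Abca7.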

How the data were processed

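Tumour RNA was read on 6 arrays of 45101 probe sets, and the authors computed a linear MAS5 intensity per probe set, per the submitters' processing notes (no version is given in the sources used here). Trimmed by 2% at each end, these deposited values averaged 500.0 on every array. No scanner file or detection call was used here, and the number of arrays limits the precision.

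Values were taken as log2(signal + 16), so differences of dim genes are understated. Each gene was its single-gene probe set of highest mean, named by the platform table. Genes with at least 3 of 6 arrays at or above the array median (50th percentile) were fitted by group alone in limma 3.58.1 (R 4.3.3), using lmFit and eBayes with a trend, with Benjamini-Hochberg adjustment over all 11623 genes at 0.05. The fit was checked on simulated data with planted changes larger than any member's difference here. That check does not measure how often changes of the size seen here are found. Named genes were the 4 synthesis and 2 other members per group with the largest difference, and members without overlap; the rest were described in short, and Abcg1 was added. The members and lists were chosen with earlier results of these data known. The labels do not say whether replicate numbers pair the arrays, and the reported fit did not use them.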

Additional observations from a re-analysis of the deposited data

How the results depend on the processing

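No member and no gene passed an adjusted p under 0.05 in limma in any of the 18 alternatives, which were other added constants (1 and 64), filters (none, and the 70th percentile), quantile normalization, median centring, other rules for probe sets, other eBayes fits, array weights, a replicate block and leaving out each array. Unadjusted, 264 genes passed in the reported fit and from 138 to 650 in the alternatives. Of 458 recomputed member values, 29 changed sign, in 13 of the 26 members. The 458 include values from the other filters, the other eBayes fits and the replicate block. Those repeat the reported differences and could not change sign. When arrays were left out, the median of the synthesis genes ranged from 0.064 to 0.207, that of the SREBP control genes from 0.073 to 0.196, that of the 2 trafficking genes from 0.002 to 0.129 and that of the LXR export genes from -0.33 to 0.153. With the probe set of highest variance the trafficking median was -0.115, where Stard4 was read by another probe set; at this setting 12 synthesis genes were tested. The cause of the other shifts was not tested. With the replicate number as a block 0 members and 0 genes passed, and 289 genes passed unadjusted. The synthesis median was 0.126 as without it, because a block balanced over the groups cannot change a difference. Deviations of same-numbered arrays correlated at 0.143, -0.083 and 0.267, and 2 of 6 arrays correlated best with their own number.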
